A study of Mus musculus with 2 samples.

Results

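The eicosanoid synthesis enzymes described here were 9 genes chosen by symbol among the 32286 features of the count tables: Ptgs1, Ptgs2, Alox5, Alox5ap, Lta4h, Ltc4s, Hpgds, Pla2g7 and Alox15. All 9 were found, and each was followed across cell classes defined by marker genes. The cells were mouse bone marrow hematopoietic cells, profiled by droplet-based sequencing of transcript 3′ ends in 2 libraries. The control library had the genotype Mx1Cre+/-;Rosa26+/+, and the other, called the MYC library and its cells MYC cells, had Mx1Cre+/-;Rosa26LSL-MYC/LSL-MYC. Both genotypes carry Mx1-Cre, a Cre recombinase under an interferon-inducible promoter, so Cre is not a difference between them. LSL-MYC is a MYC transgene that is silent until Cre removes a stop cassette. The study set out to compare expression in the marrow after MYC overexpression in hematopoietic stem cells. The labels give neither the age of the mice nor an agent used to induce Cre, and do not say how many animals a library holds.

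Eicosanoids are short-range lipid signals made from arachidonic acid that phospholipases release from membranes. Cyclooxygenases turn arachidonic acid into the precursor of prostaglandins and thromboxane, while arachidonate 5-lipoxygenase, aided by its activating protein, makes the leukotriene precursor that hydrolase and synthase enzymes convert further. Neutrophils, monocytes, mast cells and basophils are known producers of leukotrienes, and platelets and their megakaryocyte precursors of thromboxane.

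The control library held 17073 barcodes and 131884603 unique molecular identifiers (UMIs), the MYC library 14496 barcodes and 110012176 UMIs. After filters and removal of called doublets, 14760 and 12645 cells remained, with medians of 5321.5 and 6014 UMIs. The libraries shared 97 barcodes, 77 of them among kept cells. The feature named MYC had 0 UMIs in kept control cells and 295 in the MYC library. Known markers identified 15 classes; 17.5% of control and 22.1% of MYC cells stayed in clusters without a name. Levels are UMIs per 1000000 UMIs of the class (CPM). Intervals are at 95% and cover counting error only, and the log2 ratio always sets the MYC library over the control. With 1 library per group there was no replicate and no test, so a difference between the libraries cannot be told apart from one between animals or preparations. The typical gene had a slightly negative ratio in the main myeloid classes, with a median log2 ratio of −0.12 in stem or multipotent progenitors, −0.25 in granulocyte progenitors, −0.17 in immature neutrophils, −0.20 in mature neutrophils and −0.13 in monocytes.

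Across the 13 classes with at least 50 cells in both libraries, 52 pairs of a member and a class held at least 50 UMIs. A pair counted as past the fold when its levels lay at least 1.5-fold apart and the interval of the ratio excluded 1. In 18 pairs the level was lower and in 7 it was higher in the MYC library, where 16.7% and 9.91% of all gene and class pairs were. All 7 higher pairs belonged to Alox5ap, and none of the 18 lower ones did. When a class was scaled by the median ratio of its genes, 11 pairs were lower and 11 were higher. The shares of all gene and class pairs were not recomputed under that scaling, so 16.7% and 9.91% do not apply to these counts.

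**Figure D1:**
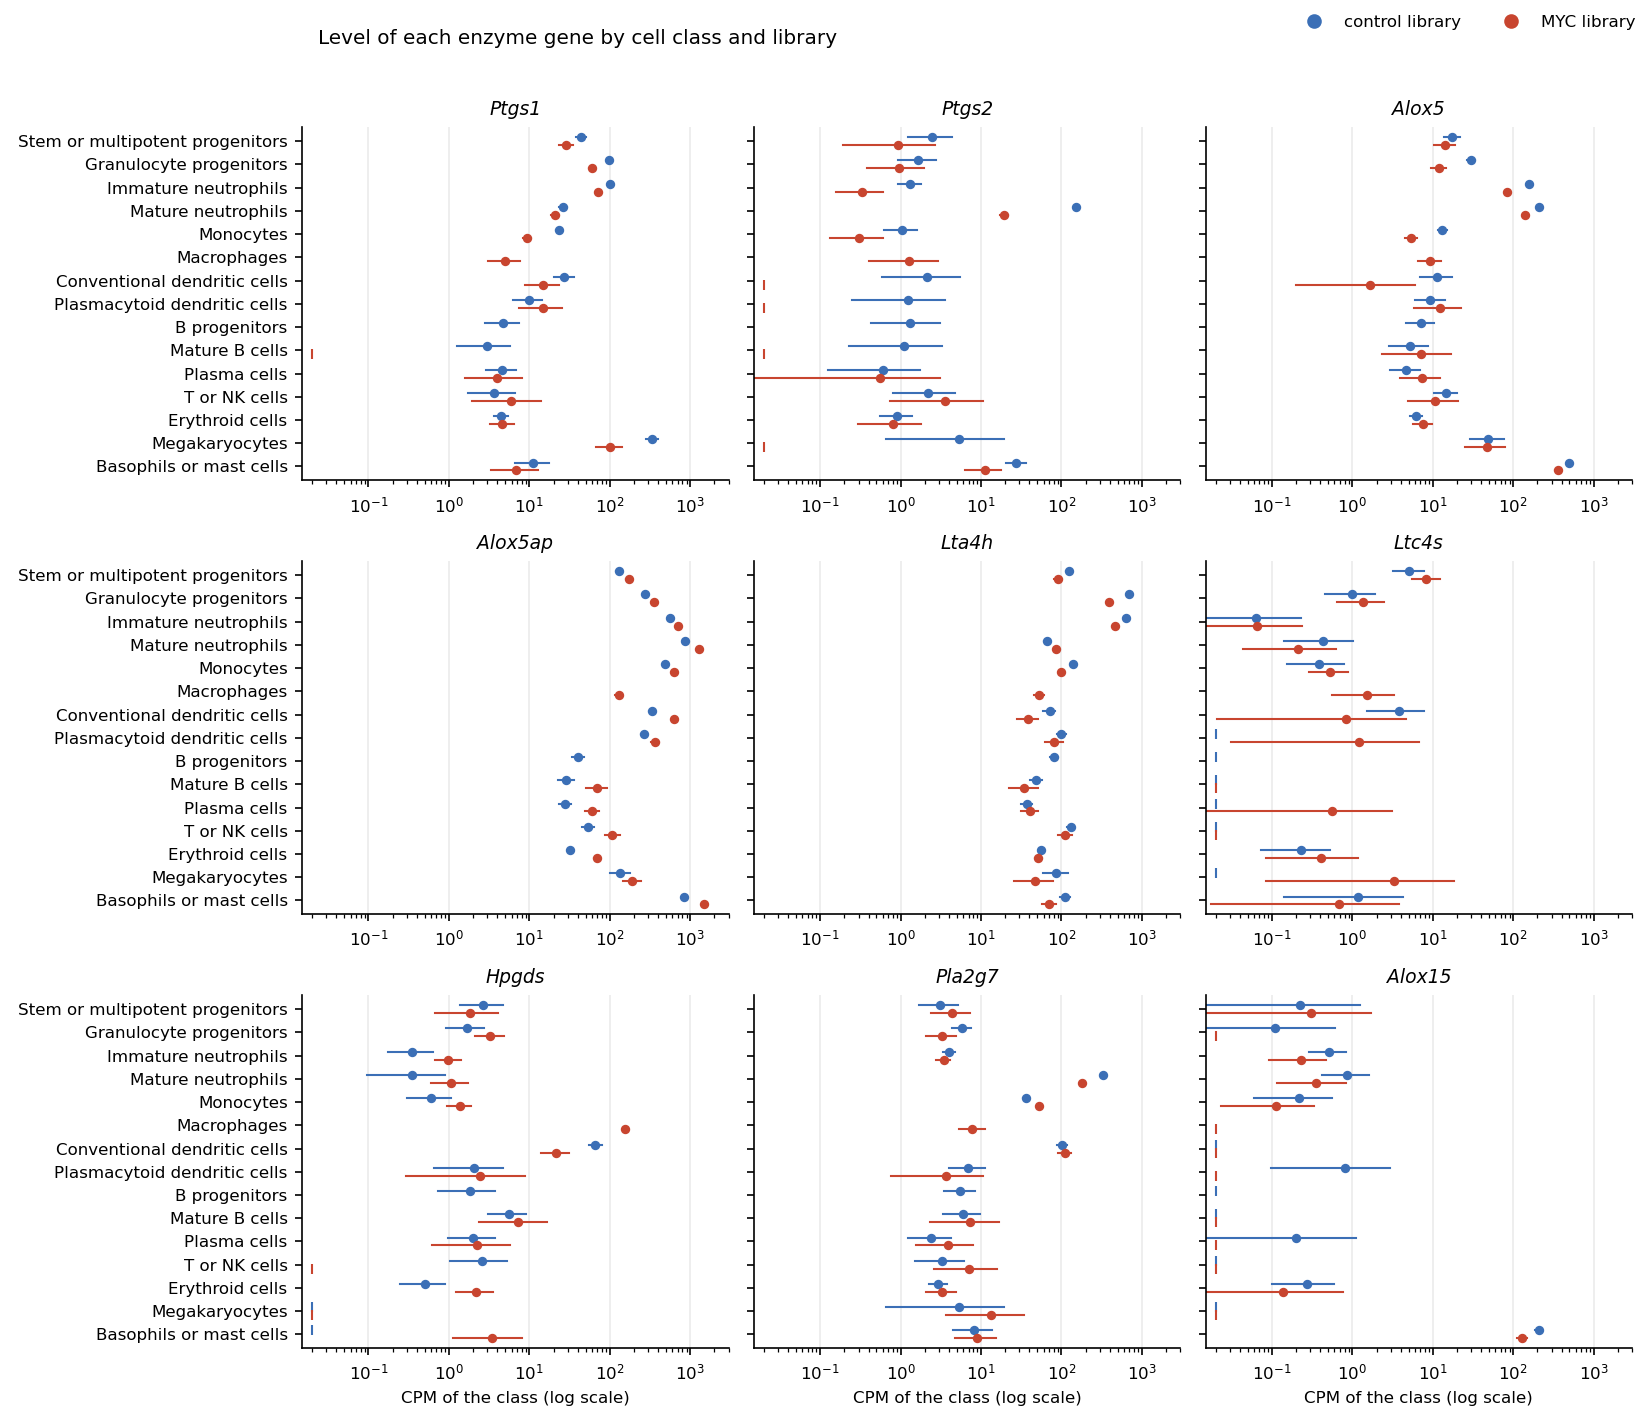
Level of each of the 9 genes in each cell class, as CPM on a log axis, in the control library (blue) and the MYC library (red); bars are exact 95% Poisson intervals, small vertical ticks at the left edge mark classes with 0 UMIs, and classes with under 50 cells in a library are left out there. Ptgs2 stood out in mature neutrophils, Alox15 in basophils or mast cells and Hpgds in macrophages of the MYC library. Alox5, Alox5ap, Lta4h and Pla2g7 were read in every class shown.

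Ptgs1 and Ptgs2 encode the cyclooxygenases, Ptgs1 the form that many cells keep at a steady level and Ptgs2 the form known for its induction by inflammatory signals. Ptgs1 lies on chromosome 2 (36230426 to 36252272, plus strand) and Ptgs2 on chromosome 1 (150100031 to 150108227, plus strand) of GRCm38. Their promoters are shown because the pair differed in which cells held them and in how far the libraries lay apart. RefSeq windows of GRCm38.p6 were searched from 250 bases before to 50 after the annotated start for the 7 of 9 members matched (not Alox5ap and Alox15), and are printed up to 30 bases after it, 5′ to 3′ on the plus strand. Capitals mark matches to any of 6 motifs on either strand, which did not overlap in these windows: the E-box (letters CACGTG), the GC box (GGGCGG), the TATA box (TATAAA), a C/EBP type (TTGCNNAA), a PU.1 type (GAGGAA) and a GATA type (AGATAA). Ptgs1 spans chr2:36230176-36230455 and Ptgs2 chr1:150099781-150100060.
Ptgs1: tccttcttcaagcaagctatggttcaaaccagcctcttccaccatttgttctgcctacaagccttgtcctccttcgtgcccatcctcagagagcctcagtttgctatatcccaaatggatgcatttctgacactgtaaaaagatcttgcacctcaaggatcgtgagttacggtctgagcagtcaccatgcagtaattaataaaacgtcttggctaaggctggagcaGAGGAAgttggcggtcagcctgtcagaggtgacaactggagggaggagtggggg
Ptgs2: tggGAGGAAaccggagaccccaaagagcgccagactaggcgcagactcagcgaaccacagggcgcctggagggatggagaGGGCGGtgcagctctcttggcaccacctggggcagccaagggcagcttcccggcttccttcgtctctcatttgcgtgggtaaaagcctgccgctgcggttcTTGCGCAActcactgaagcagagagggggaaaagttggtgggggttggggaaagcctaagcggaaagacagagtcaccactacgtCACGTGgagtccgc
Counted from 1 at the 5′ end, the Ptgs2 window held a PU.1 type match at 4 to 9, a GC box at 81 to 86, a C/EBP type match at 182 to 189 and an E-box at 267 to 272. The Ptgs1 window held only the PU.1 type match, at 227 to 232. Of 32851 windows of the same length, 7.15% held the E-box letters, 35.7% the GC box, 10.8% the C/EBP type and 28.3% the PU.1 type letters. Among the 7 members with a window, Ptgs2 was the only one with the E-box letters, and these matches describe letters, not bound sites.

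Ptgs2 was a gene of mature neutrophils in this marrow, and there its level was 7.89-fold lower in the MYC library. It stood at 153 CPM in control cells (1767 UMIs) and 19.4 CPM in MYC cells (275 UMIs), a log2 ratio of −2.98 (interval −3.17 to −2.80). Mature neutrophils held 89.4% of all control and 82.1% of all MYC-library Ptgs2 UMIs. A Ptgs2 UMI was found in 19.5% of control and 4.99% of MYC mature neutrophils. Mature B cells, taken as background, had one in 0.403% of control cells and in 0 of 142 MYC cells, which limits that share to 2.11%. The median depths were 3616 and 5111.5 UMIs in mature neutrophils and 4459.5 and 4847 in mature B cells. At an equal depth of 1000 UMIs per cell these shares of mature neutrophils were 11.7% of 2959 cells and 1.98% of 2673 cells, so the share and the level pointed the same way. Immature neutrophils had little Ptgs2, 1.31 CPM (41 UMIs) and 0.329 CPM (10 UMIs), with a log2 ratio of −1.99 (interval −3.16 to −0.97). Among the alternatives it was −2.96 with cells under 5% mitochondrial UMIs and −0.90 as a mean of the CPM of each cell. The second class in the order of levels was basophils or mast cells, with 27.6 CPM (47 UMIs) and 11.04 CPM (16 UMIs); 1 control cell held 14 of those UMIs.

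The mature neutrophils of both libraries fell mostly into different clusters, which bears on the size of this difference. Clusters 0 and 1 held 1508 and 1286 control cells but 292 and 151 cells of the MYC library, and cluster 2 held 248 and 2263. None of the 9 members was among the genes used for clustering, although Ptgs2 and Pla2g7 were then among the leading genes of cluster 0, next to Il1b. Summed markers of immature neutrophils in the mature class came to 17580.5 CPM in control and 32074 CPM in MYC cells, all 7 markers detected in both. Erythroblast markers there came to 2984 CPM in control and 1468 CPM in MYC cells. The part of either set in the result was not tested. Within cluster 0 Ptgs2 was at 314 CPM in control and 68.7 CPM in MYC cells, a log2 ratio of −2.19 (interval −2.54 to −1.87). In cluster 2 it was at 35.6 and 14.4 CPM, a log2 ratio of −1.31 (interval −1.81 to −0.77). In cluster 1 the levels of 39.7 and 26.5 CPM gave a log2 ratio of −0.58, with an interval from −1.34 to 0.10 that included 0. Thus the ratio was smaller inside single clusters than in the class as a whole, and in 2 of the 3 clusters its interval excluded 0.

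Ptgs1 had a different range of cells. Its highest level was in megakaryocytes, followed by immature neutrophils and granulocyte progenitors, whose levels in the control did not differ beyond counting error. In megakaryocytes it stood at 337 CPM (125 UMIs, 58 cells) and 100.02 CPM (30 UMIs, 60 cells), a log2 ratio of −1.75 (interval −2.38 to −1.17). A single control cell held 28 of those 125 UMIs. In the same class the 8 erythroblast markers summed to 2054 CPM in control and 15093 CPM in MYC cells and the 7 immature neutrophil markers to 7891 and 13550 CPM, and their part in the result was not tested. The 6 megakaryocyte markers summed to 16764 and 18737 CPM. In the MYC library the megakaryocyte level no longer stood apart from that of immature neutrophils, with a ratio of 1.41 (interval 0.951 to 2.02).

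Along the neutrophil lineage Ptgs1 was an early gene, high in progenitors and immature cells and low in mature ones. Granulocyte progenitors had 97.7 CPM in control and 60.1 CPM in MYC cells, immature neutrophils 100.1 and 70.8 CPM, and mature neutrophils 26.0 and 21.1 CPM. The respective log2 ratios were −0.70 (interval −0.87 to −0.53), −0.50 (−0.58 to −0.42) and −0.30 (−0.54 to −0.065). The last of these lay 0.10 below the median gene of that class. Stem or multipotent progenitors read 44.3 and 28.7 CPM, a log2 ratio of −0.63 that ranged from −1.37 to −0.50 over the alternatives. Summed immature neutrophil markers there were 2636 CPM in control and 1328 CPM in MYC cells, and eosinophil markers 159.5 and 872 CPM; their part was not tested. Monocytes showed the widest gap of Ptgs1 among the myeloid classes outside megakaryocytes, 23.3 CPM (427 UMIs) against 9.39 CPM (247 UMIs), a log2 ratio of −1.31 (interval −1.55 to −1.08). Summed markers of immature neutrophils in monocytes were 4223 CPM in control and 4327 CPM in MYC cells, and granulocyte progenitor markers 5234 and 4561 CPM. Their part in the ratios of monocytes was not tested. Inside monocyte clusters 9 and 10 the Ptgs1 ratios were −1.53 and −1.32.

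Alox5 encodes arachidonate 5-lipoxygenase, which makes the leukotriene precursor, and Alox5ap the membrane protein that presents arachidonic acid to it. In granulocyte progenitors, immature and mature neutrophils, monocytes, and basophils or mast cells, Alox5 was lower and Alox5ap higher in the MYC library, each with an interval that excluded 0. Alox5 lies on chromosome 6 (116410077 to 116461178, minus strand) and Alox5ap on chromosome 5 (149264767 to 149288153, plus strand), where a gene named Gm19719 overlaps it on the other strand. The promoter of Alox5, chr6:116461149-116461428 on the minus strand and printed on that strand, is shown with the same capitals, because Alox5 was lower at each stage of the neutrophil lineage.
Alox5: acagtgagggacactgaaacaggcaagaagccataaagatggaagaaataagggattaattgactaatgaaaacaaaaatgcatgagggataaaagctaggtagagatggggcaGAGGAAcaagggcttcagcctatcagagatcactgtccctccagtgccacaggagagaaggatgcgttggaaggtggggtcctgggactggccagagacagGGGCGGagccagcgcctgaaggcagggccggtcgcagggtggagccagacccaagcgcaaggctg
It held a PU.1 type match at 115 to 120 and a GC box at 216 to 221. PU.1 type letters stood in 6 of the 7 members' windows, all but that of Pla2g7, and in 28.3% of all windows; TATAAA and AGATAA stood in none of the 7, and in 13.6% and 11.2% of all.

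The level of Alox5 was highest in basophils or mast cells, then in mature neutrophils, then in immature ones, and each step was larger than its counting error in both libraries. Basophils or mast cells had 501 CPM (853 UMIs, 187 cells) in control and 358 CPM (519 UMIs, 146 cells) in MYC cells, a log2 ratio of −0.48 (interval −0.64 to −0.32). Mature neutrophils had 209 and 141 CPM, with a ratio of −0.57 (interval −0.66 to −0.49). Immature neutrophils had 159 and 83.5 CPM, with a ratio of −0.93 (interval −1.002 to −0.86). Summed mature neutrophil markers in immature neutrophils were 4715 and 2768 CPM, all 7 detected in both libraries, and their part in the Alox5 and Ptgs2 ratios of that class was not tested. Granulocyte progenitors stood far lower, at 29.999 CPM (271 UMIs) and 11.97 CPM (88 UMIs), a log2 ratio of −1.33 (interval −1.69 to −0.97). Summed immature neutrophil markers in granulocyte progenitors were 16967 CPM in control and 13144 CPM in MYC cells, and eosinophil markers 23.5 and 263 CPM, and their part in the ratios of that class was not tested. Monocytes had 13.2 CPM (241 UMIs) and 5.36 CPM (141 UMIs), a ratio of −1.30. Thus the classes with the least Alox5 among these had the widest ratios, and mature neutrophils and basophils or mast cells missed the 1.5-fold limit. In stem or multipotent progenitors, 17.6 and 14.2 CPM gave an interval that included 0.

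Alox5ap was the most widely read member, with 43812 UMIs in kept control cells and 64880 in the MYC library. Mature neutrophils read 856 CPM in control and 1288 CPM in MYC cells, a log2 ratio of 0.59 (interval 0.55 to 0.62). Basophils or mast cells read 847 and 1477 CPM, a ratio of 0.80 (interval 0.71 to 0.90). Summed markers in that class were 3445 and 1016 CPM for erythroblasts, 6091 and 4460 for immature neutrophils, and 4405 and 5537 for granulocyte progenitors. Their part in the ratios of that class was not tested. Immature neutrophils read 555 and 710 CPM, a ratio of 0.36. The level was thus higher in the MYC library throughout the granulocytes, and in the control mature neutrophils and basophils or mast cells did not differ beyond counting error. Monocytes read 479 and 626 CPM (ratio 0.39), granulocyte progenitors 277 and 350 CPM (ratio 0.34) and stem or multipotent progenitors 130 and 175 CPM (ratio 0.43). Conventional dendritic cells read 332 CPM (618 UMIs) and 630 CPM (765 UMIs), a ratio of 0.92 (interval 0.77 to 1.08). In plasmacytoid dendritic cells the levels were 264 and 362 CPM.

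Alox5ap UMIs were also read at a low level in erythroid and lymphoid cells, and those values differed between the libraries as well. Erythroid cells read 32.3 CPM (711 UMIs) in control and 69.7 CPM (513 UMIs) in MYC cells, a log2 ratio of 1.11, and summed immature neutrophil markers there were 2975 and 5148 CPM. Mature B cells read 28.8 CPM (78 UMIs) and 69.0 CPM (48 UMIs), and 13 of the 48 came from 1 cell. Summed immature neutrophil markers in mature B cells were 1677 CPM in control and 2677 CPM in MYC cells, and mature neutrophil markers 455 and 1535 CPM. In plasma cells the ratio was 1.10, where the 8 monocyte markers summed to 710 CPM in control and 3565 CPM in MYC cells and immature neutrophil markers to 2970 and 5696 CPM. In T or NK cells it was 0.998, with immature neutrophil markers at 4946 and 6649 CPM and mature neutrophil markers at 713 and 1649 CPM. Together with mature neutrophils, basophils or mast cells and conventional dendritic cells, these 4 classes made up the 7 in which Alox5ap was past the fold. The levels of those 4 were at most 107 CPM, and the part of these neutrophil and monocyte markers in their ratios was not tested. With doublets kept the ratio was 0.19 in T or NK cells, with an interval that included 0, and 0.55 in erythroid cells. In conventional dendritic cells it was 0.41 with cells classified by marker score and 0.50 when cells needed 1000 UMIs and 500 genes. In mature neutrophils it was 0.57 as a mean of the CPM of each cell and 0.58 at a clustering resolution of 0.5. Each of these missed the 1.5-fold limit and stayed above 0.

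The UMIs of the pair were also set against each other, which joins both differences in 1 number. This ratio is used only to set libraries and classes side by side, since 3′ counts do not give the ratio of transcripts. Immature neutrophils had 3.48 Alox5ap UMIs per Alox5 UMI (interval 3.37 to 3.59) in the control and 8.51 (8.17 to 8.87) in the MYC library, 2.44-fold apart. Mature neutrophils had 4.09 and 9.14, basophils or mast cells 1.69 and 4.12, and monocytes 36.4 and 116.9. The intervals of the libraries did not overlap in any of these classes. Basophils or mast cells had the lowest ratio of the 4 in both libraries, and monocytes the highest. The other classes with at least 50 cells in both libraries were divided. Intervals also lay apart in granulocyte progenitors, erythroid cells and conventional dendritic cells, the last with 2 Alox5 UMIs in the MYC library. They overlapped in stem or multipotent progenitors, plasmacytoid dendritic cells, mature B cells, plasma cells, T or NK cells and megakaryocytes.

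The shift was read in single clusters too. Alox5 was lower, and Alox5ap higher, in all 3 mature and all 3 immature neutrophil clusters, in granulocyte progenitors and in monocyte clusters 9 and 10, each with an interval that excluded 0. In cluster 2, which held most mature neutrophils of the MYC library, Alox5 read 246 CPM in control and 142 CPM in MYC cells, and Alox5ap 844 and 1292 CPM. In cluster 0, the largest of the 3 in the control, Alox5 read 182 and 130 CPM and Alox5ap 846 and 1306 CPM. In the 3 mature clusters the ratios ran from −0.80 to −0.48 for Alox5 and from 0.46 to 0.63 for Alox5ap, on both sides of the class values of −0.57 and 0.59. In monocyte cluster 19, led by Ace and Adgre4, Alox5 had only 28 and 13 UMIs and its interval included 0.

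**Figure D2:**
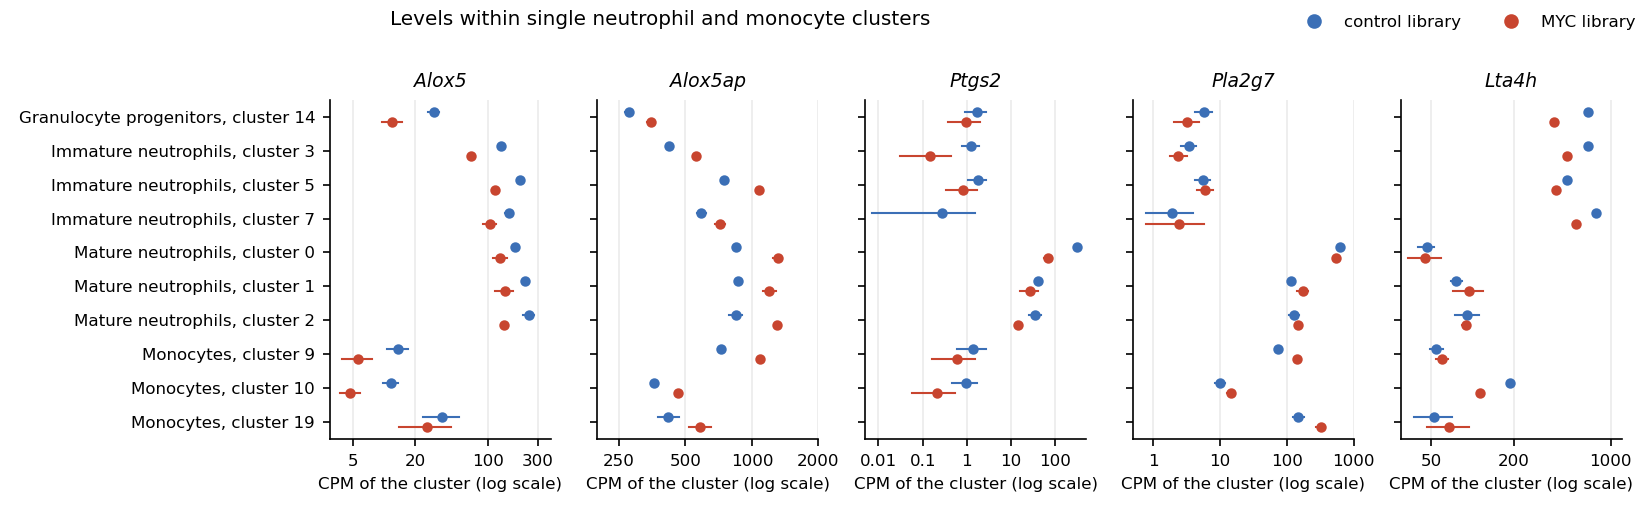
CPM of Alox5, Alox5ap, Ptgs2, Pla2g7 and Lta4h within each cluster of granulocyte progenitors, immature neutrophils, mature neutrophils and monocytes, on log axes, in the control library (blue) and the MYC library (red); bars are exact 95% Poisson intervals, and 0 UMIs leave no point. The red points of Alox5 lie left of the blue ones and those of Alox5ap right of them in all 10 clusters, whereas the order of Pla2g7 and Lta4h depends on the cluster.

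Lta4h encodes leukotriene A4 hydrolase, which makes leukotriene B4, a chemoattractant for neutrophils, and which also cleaves peptides. It lies on chromosome 10 (93453411 to 93484875, plus strand). Among all classes its level was highest in granulocyte progenitors and immature neutrophils and several-fold lower in mature ones. Granulocyte progenitors read 687 CPM in control and 386 CPM in MYC cells, a log2 ratio of −0.83 (interval −0.90 to −0.77). Immature neutrophils read 625 and 465 CPM, a ratio of −0.43 (interval −0.46 to −0.40). Monocytes read 140 and 99.1 CPM, a ratio of −0.50. All 3 were lower in the MYC library, granulocyte progenitors past the fold. In monocytes the gap came with cluster 10 (188 and 114 CPM); in cluster 9, at 54.7 and 60.1 CPM, the interval included 0.

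Mature neutrophils read 65.4 CPM of Lta4h in control cells (754 UMIs) and 85.7 CPM in MYC cells (1213 UMIs), a log2 ratio of 0.39 (interval 0.26 to 0.52). Immature neutrophil markers in this class, given above, were also higher in MYC cells, at 17580.5 and 32074 CPM, and their part was not tested. This direction did not hold within the class. The 3 mature clusters had ratios of −0.036, 0.29 and −0.044, each with an interval that included 0, and when only cells past 1000 UMIs and 500 genes were used the class itself read −0.26. Basophils or mast cells read 110.3 and 69.7 CPM, a ratio of −0.66 (interval −1.03 to −0.31), and conventional dendritic cells 71.0 and 37.9 CPM, a ratio of −0.91, which was 0.046 among cells under 5% mitochondrial UMIs. Granulocyte progenitor markers in those dendritic cells summed to 945 and 176 CPM and erythroblast markers to 3207 and 905 CPM, and their part was not tested. In erythroid cells the levels were 55.9 and 51.3 CPM.

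Ltc4s encodes leukotriene C4 synthase, the step toward the cysteinyl leukotrienes, and was barely read in this marrow. It lies on chromosome 11 (50236461 to 50238616, minus strand), and Gm26542 overlaps it on the other strand. Kept control cells held 64 UMIs of it and kept MYC cells 83. Stem or multipotent progenitors had 23 and 27 of these, or 5.12 and 8.35 CPM, with a ratio of 0.70 whose interval (−0.15 to 1.57) included 0. Mature neutrophils had 5 and 3 UMIs and basophils or mast cells 2 and 1, so no difference was detectable there at this depth.

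Hpgds encodes the hematopoietic prostaglandin D synthase, and lies on chromosome 6 (65117293 to 65144908, minus strand). Over all kept cells it was 3.74-fold higher in the MYC library, at 2.13 CPM (255 UMIs) and 7.96 CPM (818 UMIs). Macrophages, led by C1qa, C1qb and C1qc, numbered 20 in control and 630 in MYC marrow, or 0.136% and 4.98% of kept cells, and held 76.0% of the gene's UMIs in the MYC library. Within them Hpgds stood at 146 CPM (16 UMIs) and 156 CPM (622 UMIs). The 20 control cells are too few for a comparison by the limit of 50 cells; the interval of the ratio ran from −0.61 to 0.91. Summed conventional dendritic markers in macrophages were 8973 CPM in the 20 control cells and 787 CPM in the 630 MYC cells, and macrophage markers in the conventional dendritic class 2326 and 1728 CPM. The counts of macrophages therefore rest on how clusters separated these cells from dendritic cells, whose part in the Hpgds difference was not tested, and genotype and library cannot be told apart here.

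In the control 48.2% of Hpgds UMIs lay in conventional dendritic cells, a cluster led by Mrc1, Axl and MHC class II genes, but this share was 6.67% at a clustering resolution of 2 and 4.71% with cells classified by marker score. There it read 66.2 CPM (123 UMIs, 226 cells) in control and 21.4 CPM (26 UMIs, 137 cells) in MYC cells, a log2 ratio of −1.63 (interval −2.30 to −1.01). Summed macrophage markers in this class were 2326 and 1728 CPM, against 3660 and 5248 CPM in macrophages, and their part was not tested. When each cell was classified by its marker score alone, the ratio became 1.87. Both the share and the direction in dendritic cells therefore depended on how the class was drawn. No UMI of Hpgds was read in 187 control basophils or mast cells, which limits the share of cells with one to 1.60%, and 5 UMIs were read in the MYC library.

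Pla2g7 encodes the secreted platelet-activating factor acetylhydrolase, which breaks down platelet-activating factor and oxidized phospholipids. It lies on chromosome 17 (43568098 to 43612201, plus strand), and 1700071M16Rik overlaps it on the other strand. It was a gene of mature neutrophils, conventional dendritic cells and monocytes, in that order of level in both libraries. Mature neutrophils read 326 CPM (3753 UMIs) in control and 179 CPM (2538 UMIs) in MYC cells, a log2 ratio of −0.86 (interval −0.93 to −0.79). Monocytes read 35.7 CPM (654 UMIs) and 52.6 CPM (1385 UMIs), a ratio of 0.56 (interval 0.42 to 0.70). Conventional dendritic cells, at 102 and 109 CPM, had an interval that included 0, and their ratio ranged from −1.575 to 0.39 over the alternatives. Over all kept cells the level was 42.1 and 42.6 CPM, while mature neutrophils held 9.62% and 13.8% of all UMIs and monocytes 15.3% and 25.6%. That ratio of 0.018 became −0.16 among cells under 5% mitochondrial UMIs, 0.22 when scaled by the median ratio of all genes and −0.56 when the CPM of single cells were averaged.

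Cluster by cluster, the gap in mature neutrophils was not a common one. Cluster 0 read 617 CPM in control and 543 CPM in MYC cells, a log2 ratio of −0.18 (interval −0.31 to −0.06), cluster 1 read 117 and 172 CPM (0.56, interval 0.27 to 0.84) and cluster 2 read 129 and 146 CPM (0.17, interval −0.07 to 0.43). Cluster 0 had the high level in both libraries and held 1508 of 3042 control mature neutrophils but only 292 of 2706 MYC ones. In monocytes all 3 clusters read higher in the MYC library, cluster 9 at 72.6 and 139.9 CPM, cluster 10 at 10.1 and 14.5 CPM and cluster 19 at 148 and 318 CPM. Each of these 3 intervals excluded 0.

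Alox15 encodes a lipoxygenase of arachidonic and linoleic acid, and lies on chromosome 11 (70344152 to 70352031, minus strand). It was read almost wholly in basophils or mast cells, with 87.8% of its 401 UMIs in the control and 90.4% of 208 in the MYC library. There it stood at 207 CPM (352 UMIs) and 130 CPM (188 UMIs), a log2 ratio of −0.67 (interval −0.93 to −0.41). At an equal depth of 1000 UMIs, 22.8% of 184 control and 18.5% of 146 MYC cells had a UMI of it. Erythroblast markers in this class, given above, summed to 3445 CPM in control and 1016 CPM in MYC cells, and their part was not tested. Eosinophils also express Alox15 in other tissues, so their markers were read in this class: Prg2 had 15 and 4 UMIs, Epx 1 and 0, and Il5ra 0 in both. Ccr3 had 22 and 5 UMIs, Ear2 9 and 4, and Ear1 0 and 1. In each library 5 of the 7 eosinophil markers read had a UMI, with Siglecf the highest at 25 and 20. The part of these markers in the Alox15 ratio was not tested. No other named class exceeded 0.867 CPM of Alox15, and the unnamed clusters had 8 and 3 UMIs.

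**Figure D3:**
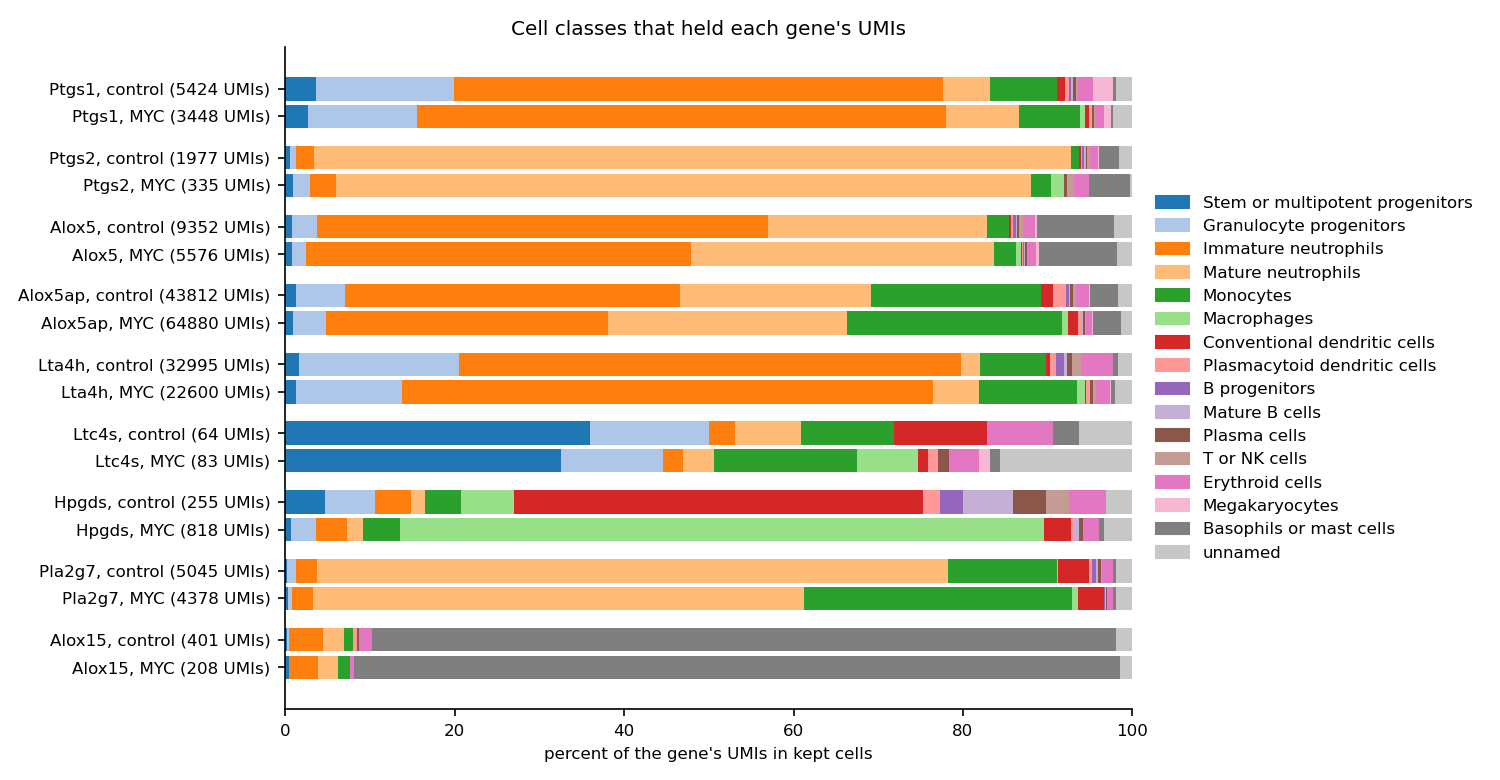
Percent of each gene's UMIs in kept cells that fell in each cell class, 1 bar per gene and library, with the total UMIs in the label. Mature neutrophils held most Ptgs2 and Pla2g7, basophils or mast cells most Alox15, and macrophages most Hpgds of the MYC library, while Ptgs1, Alox5 and Lta4h were largest in immature neutrophils.

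By class, the members were read against all genes with at least 50 UMIs. In stem or multipotent progenitors 1 of 5 members with enough UMIs (Ptgs1) was past the fold in the lower direction, where 10.8% of all genes were, and 0 in the higher, where 5.93% were. In granulocyte progenitors 4 of 5 (Ptgs1, Alox5, Lta4h and Pla2g7) were lower, against 22.5% of all genes, and 0 higher, against 5.08%. In immature neutrophils 2 of 6 (Ptgs2 and Alox5) were lower, against 18.0%, and 0 higher, against 9.31%. In mature neutrophils 2 of 6 (Ptgs2 and Pla2g7) were lower, against 23.3%, and 1 (Alox5ap) higher, against 8.78%. In monocytes 2 of 5 (Ptgs1 and Alox5) were lower, against 15.8%, and 0 higher, against 7.84%. The median log2 ratio of the members was −0.29, −0.69, −0.46, −0.43 and −0.49 in these 5 classes in the same order, each below the median of all genes of its class. With each class scaled by the median ratio of its genes, granulocyte progenitors had 1 lower (Alox5) and 1 higher (Alox5ap), and stem or multipotent progenitors 0 of either. Under that scaling Lta4h joined the higher side in mature neutrophils and Pla2g7 in monocytes. The shares of all genes were not recomputed under it. With 5 or 6 members, 1 gene moves each of these counts.

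**Figure D4:**
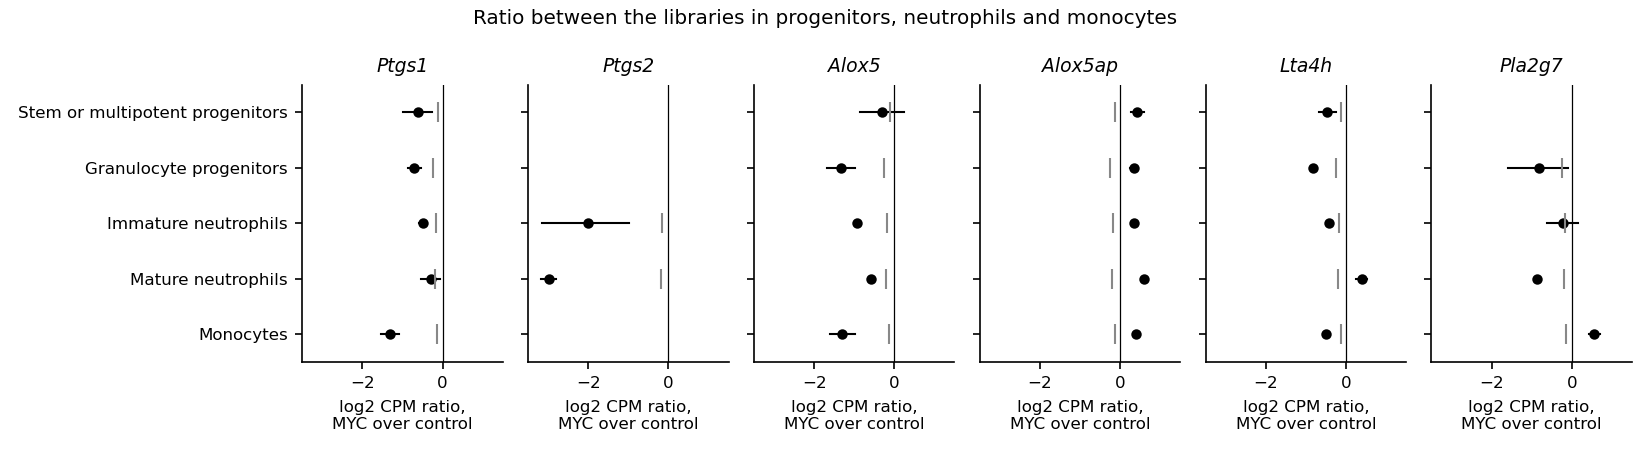
Log2 ratio of CPM, MYC over control library, of 6 members in 5 classes; points are ratios, bars 95% counting intervals and grey ticks the median of all genes of the class, and pairs with under 50 UMIs are left out. Alox5ap lies right of 0 in all 5 classes, Ptgs1 lies left of 0 in all 5, and Lta4h and Pla2g7 change sides between mature neutrophils and monocytes.

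The rest of the pathway was taken from 8 lists of 62 further genes among the features, from phospholipases to receptors. In mature neutrophils 31 of them had enough UMIs. Of these, 4 were past the fold higher and 9 lower, where 8.78% and 23.3% of all genes were. Immature neutrophils had 4 and 14 of 33, against 9.31% and 18.0% of all genes. Granulocyte progenitors had 3 and 10 of 29, against 5.08% and 22.5%. Monocytes had 4 and 6 of 34, against 7.84% and 15.8%. Stem or multipotent progenitors had 2 and 2 of 28, against 5.93% and 10.8%. The median log2 ratios of these pathway genes were −0.23, −0.27, −0.21, −0.15 and 0.08 in that order. Those of all genes were −0.20, −0.17, −0.25, −0.13 and −0.12.

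Upstream of the members, Pla2g4a, the cytosolic phospholipase that releases arachidonic acid, read 29.1 CPM in control immature neutrophils and 18.9 CPM in MYC cells, a log2 ratio of −0.63. Pla2g12a, a secreted phospholipase, was higher in granulocyte progenitors (19.8 and 39.3 CPM) and monocytes (6.45 and 13.1 CPM). The lysosomal Pla2g15 was lower in monocytes, at 21.6 and 12.0 CPM. Phospholipases past the fold thus stood in both directions.

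Among the terminal prostanoid synthases, thromboxane synthase (Tbxas1) was lower wherever it was past the fold. It read 23.7 and 10.1 CPM in mature neutrophils, 10.4 and 4.77 CPM in immature neutrophils, and 26.3 and 14.4 CPM in monocytes. Akr1b3, an aldose reductase that also makes prostaglandins, was higher in immature neutrophils at 11.4 and 18.5 CPM. Ptges3, the most read of this list, gave ratios of −0.022 for granulocyte progenitors, 0.062 for immature and −0.16 for mature neutrophils, each with an interval that included 0.

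Enzymes that continue or end leukotriene signals were divided. Mgst2 and Mgst3, microsomal glutathione transferases that can form leukotriene C4, were higher where they were past the fold: Mgst2 in mature neutrophils (62.3 and 96.2 CPM), Mgst3 in monocytes (22.2 and 48.8 CPM), granulocyte progenitors (10.8 and 19.9 CPM) and 2 more classes. The peptidase genes Ggt1 and Ggt5 stood on opposite sides in mature neutrophils, Ggt1 at 10.8 and 22.6 CPM and Ggt5 at 97.1 and 54.1 CPM. Dpep2, the next peptidase, was higher in monocytes, at 5.08 and 9.88 CPM. Cyp4f18, which inactivates leukotriene B4 in mouse neutrophils, was lower in mature neutrophils, at 343 and 202 CPM, a log2 ratio of −0.76. The prostaglandin reductase Ptgr1 was lower in granulocyte progenitors, at 139.8 and 83.2 CPM, and the exporter Abcc4 in all 3 neutrophil stages, with 44.5 and 24.3 CPM in the first. Abcc1 was lower in granulocyte progenitors. Hpgd, which inactivates prostaglandins, had 19 and 36 UMIs in immature neutrophils.

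Receptors of the products stood in both directions. Ltb4r1, the high-affinity leukotriene B4 receptor, read 125 CPM in control mature neutrophils and 259 CPM in MYC cells, a log2 ratio of 1.05 (interval 0.96 to 1.14), and 77.5 and 118 CPM in monocytes. Fpr2, a receptor for lipoxin and formyl peptides, read 412 and 252 CPM in immature neutrophils, a ratio of −0.71, and 711 and 506 CPM in mature ones. Ptger4, a prostaglandin E receptor, was lower in 4 classes, with 17.8 and 5.42 CPM in immature neutrophils, a ratio of −1.72. Ptgir, the prostacyclin receptor, read 45.0 and 28.4 CPM in immature neutrophils and 19.7 and 10.6 CPM in monocytes. Ptger2 was lower in mature neutrophils (11.6 and 5.30 CPM), Ptgdr had 49 and 12 UMIs in immature neutrophils, and Ptger1, with 18 and 44 UMIs in mature neutrophils, was the 1 prostanoid receptor past the fold in the higher direction.

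For platelet-activating factor, the lipid that Pla2g7 breaks down, the receptor gene Ptafr was lower in all 3 neutrophil stages and in monocytes. Mature neutrophils read 140.5 CPM of Ptafr in the control and 54.1 CPM in MYC cells, a log2 ratio of −1.38 (interval −1.50 to −1.25). Lpcat1, an acyltransferase that can form platelet-activating factor, read 54.1 and 30.5 CPM in immature neutrophils, and the intracellular acetylhydrolase gene Pafah2 read 25.4 and 14.2 CPM there. Pafah1b1, the most read of the list, had a log2 ratio of −0.20 in immature and −0.14 in mature neutrophils. Pafah1b3 was higher in granulocyte progenitors, at 6.20 and 11.7 CPM, and lower in mature neutrophils, at 4.08 and 1.84 CPM.

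For 6 members with at least 1000 UMIs, the genes of most similar level over 28 points (14 classes per library) were ranked by Pearson correlation of log2(CPM + 1), as a description. The points of a library share its preparation. Alox5 was most like Hdc (r = 0.93), Syne1 and Arap3, and Hdc makes histamine in basophils and mast cells. Alox5ap was most like Fes (r = 0.91), Atg3 and Fcgr3. Lta4h was most like Lbp (r = 0.91), Fcnb and Gpc1. Pla2g7 was most like Cd300ld (r = 0.91), Tgfbi and Tlr13. Ptgs1 was most like Mctp1 (r = 0.87), Agtrap and Lrrfip2, and Hpgds most like Bcl2a1a (r = 0.87), C1qb and C1qc.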

How the data were processed

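The authors deposited raw UMI counts for each barcode. The submitters' processing notes name Cell Ranger 6.0, Seurat, GRCm38 and mm10. The library kit was a 3′ v2 kit, per the labels' protocols. Whether counting used strand, and how barcodes were called, are not given in the sources used here. Barcodes needed 500 UMIs, 200 genes and a mitochondrial share under 10%. Scrublet, in scanpy 1.11.5, removed 701 control doublets (4.53%) and 251 (1.95%) in the MYC library, where a rate of 0.8% per 1000 barcodes gives 13.7% and 11.6%, so doublets remained. Both libraries were clustered together (Leiden, resolution 1, 15 neighbours, 30 components, 2000 variable genes with members, pathway genes, antigen receptor, ribosomal and mitochondrial genes left out). Clusters were named from markers of 19 types, by the highest mean marker score with at least 3 markers detected. Clusters whose 10 leading genes held more markers of another family, or whose median UMIs were under 0.2 of their library's (a limit set after the data were seen), stayed unnamed. That a cluster may be named with no own marker among those 10 was also decided after the data were seen. UMIs were summed per class and library and given as CPM with exact Poisson intervals, ratios with exact conditional binomial intervals (scipy 1.17.1), and shares with Clopper-Pearson intervals. The limit for a share of 0 is 3 counts. Ratios needed 50 UMIs over both libraries and 50 cells in each. List medians used a pseudocount of 1 CPM. The calls were tried on simulated Poisson counts around the control means of a class, with no spread between cells, animals or preparations. Those counts follow the counting model of the intervals, so the trial cannot tell how the calls fare with such spread. Members and lists were chosen with earlier results of these data known. Named pathway genes were the 2 most read of each list, and those past the fold in a neutrophil stage or monocytes, not all with values. Free RNA was not removed. Gene positions come from GENCODE vM21 and promoters from RefSeq. The alternatives were other resolutions, filters, scalings, doublets kept and classes by score. The genes most like Ptgs2 are not reported here.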

Additional observations from a re-analysis of the deposited data

Results flagged for a closer look

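Lta4h and Pla2g7 had counting intervals on opposite sides of 0 in different classes of the same 2 libraries. For Lta4h the log2 ratio of mature neutrophils (0.39) exceeded that of conventional dendritic cells (−0.91) by 1.30. Both values depend on the processing: mature neutrophils read −0.26 when cells needed 1000 UMIs and 500 genes, conventional dendritic cells 0.046 under the 5% mitochondrial limit, and all 3 mature clusters had intervals that included 0. For Pla2g7 that of monocytes (0.56) exceeded that of mature neutrophils (−0.86) by 1.42, while the 3 mature clusters read −0.18, 0.56 and 0.17, so no single cluster had the value of the class. With 1 library per group neither difference was tested. In the cells of unnamed clusters, which entered no comparison of classes, Hpgds read 9.96 CPM in the MYC library (27 UMIs), above the 3.18 CPM (8 UMIs) of the control.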

How the results depend on the processing

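Each of 68 ratios was recomputed under up to 9 alternatives, of which the stricter naming rule for clusters was chosen after seeing the data, as was the looser rule in use. Of these 591 values 122 moved, and of 120 recomputed shares of a member's UMIs 52 moved, by more than counting error. For the 54 ratios whose interval excluded 0, 6 of 473 values changed direction, in 3 ratios. Lta4h in mature neutrophils became −0.044 with each cell classified by its marker score alone, −0.021 with doublets kept, −0.075 with cells under 5% mitochondrial UMIs and −0.26 when cells needed 1000 UMIs and 500 genes. Hpgds in conventional dendritic cells became 1.87 with cells classified by marker score, and Lta4h there 0.046 under the 5% mitochondrial limit. Under median-of-ratios scaling, 11 pairs of a member and a class were past the fold higher in place of 7, and 11 lower in place of 18. The shares of all gene and class pairs were not recomputed under that scaling. For Ptgs2 in mature neutrophils the ratio ranged from −3.05 to −2.68, for Alox5ap there from 0.57 to 0.81, for Pla2g7 from −0.93 to −0.51, for Pla2g7 in monocytes from 0.31 to 0.72, for Ptgs1 in monocytes from −1.66 to −1.17 and for Alox15 in basophils or mast cells from −0.80 to −0.45. No paired analysis was possible because each group has 1 library. Depth limits Ltc4s, Hpgds outside macrophages and dendritic cells, and every member in classes with few cells.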

Other observations

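Pathway genes outside the neutrophil stages and monocytes were read in 2 small classes. In megakaryocytes (58 and 60 cells) erythroblast markers summed to 2054 and 15093 CPM, and their part in the values was not tested. There Tbxas1, thromboxane synthase, stood at 353 CPM (131 UMIs) in control and 117 CPM (35 UMIs) in MYC cells, and Pla2g4a at 178 CPM (66 UMIs) and 40.0 CPM (12 UMIs). Alox12, the platelet lipoxygenase, stood at 922 and 590 CPM, a log2 ratio of −0.64 (interval −0.91 to −0.38), and Cysltr2, a cysteinyl leukotriene receptor, had 46 and 7 UMIs and was chosen after its values were seen. The median of all genes in megakaryocytes was −0.29.

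In basophils or mast cells Alox8, another lipoxygenase, read 54.0 CPM (92 UMIs) in control and 17.3 CPM (25 UMIs) in MYC cells, a log2 ratio of −1.65 (interval −2.35 to −0.995). Ltb4r1 read 143 and 230 CPM there, a log2 ratio of 0.68. Pafah2 read 95.7 and 38.6 CPM, a log2 ratio of −1.31. In cells of unnamed clusters Ptgs2 had 31 control UMIs and 1 in the MYC library.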
